A study of Mus musculus with 12 samples.

Results

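The female fibroblast cultures with a knockout of Sirt3 were compared with the female wild-type cultures over the whole transcriptome. The members are the 3 libraries labelled female KO and the 3 labelled female WT, 6 of the 12 libraries of the series, chosen by their labels. The other 6 libraries are a male pair of the same genotypes. Polyadenylated RNA of immortalized mouse embryonic fibroblasts (MEFs) was sequenced and given as TPM (transcript abundance scaled to a fixed library total), a level corrected for transcript length and library size. MEFs came from embryos 13 days old, WT from the 129S1/SvImJ strain and KO from mice without functional Sirt3. All lines were grown from single embryos and immortalized with a plasmid that carries SV40 T antigen, which both genotypes therefore share. Cells of passage 6 were seeded in triplicate and collected after 48 h without further treatment. The number of lines per group was not given in the sources used here, so the SD between 3 libraries may measure the spread between wells of 1 line. Genotype and line then cannot be told apart.

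Sirt3 is a deacetylase of the mitochondrial matrix that uses NAD and acts on enzymes of fuel oxidation and of the defence against oxidants. Its substrates are proteins, so differences in mRNA are at a distance from its activity. MEFs are a mixed mesenchymal culture that secretes collagens and other matrix proteins. They keep the Hox code and other transcription factors of the body region that they came from, and immortalization grows a line from part of that mixture.

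The library labels were checked first. Sirt3 itself (ENSMUSG00000025486.17, chromosome 7, 140863666 to 140882309 of GRCm38) stood at 7.57, 9.06 and 8.19 TPM in the libraries labelled KO and 7.399, 7.603 and 8.69 TPM in those labelled WT (log2 fold change 0.059 ± 0.11 SE, adjusted p = 0.772). Its mRNA was not lower in the libraries labelled KO, so these RNA levels do not check the genotype, and KO in the text means that label. The study also printed a representative immunoblot of Sirt3 protein, which was not examined here. Gene-level TPM does not show which exons the reads cover. Of 4 Y-linked genes, Eif2s3y was listed at 0 in all 6 female libraries, Ddx3y was at 0.121 ± 0.09297 TPM in libraries labelled WT and 0.119 ± 0.0469 TPM in those labelled KO, and Uty at 3.85 ± 1.91 TPM in libraries labelled WT and 2.89 ± 0.522 TPM in those labelled KO. None of the 4 passed the test of KO against WT, which does not check the sex label. Of 2 other tested genes that the annotation places on chromosome Y, Gm47283 was lower in KO (log2 fold change -0.51 ± 0.035 SE, adjusted p = 0.000412). It is named for that reason after its values were seen, while the other gene did not pass. Whether X also carries Gm47283 was not examined, so its level does not check the sex label. Xist was not analysed here. Read depth is unknown, since TPM does not keep it. Between 12256 and 12637 genes reached 1 TPM in a library, and transcripts of mitochondrial DNA made up 3.14% to 3.82% of a library. Of a list of 30 fibroblast markers, 26 reached a mean of 1 TPM over the 12 libraries, with a summed level from 10105 to 10270.4 TPM in the WT and from 13306 to 13617 TPM in the KO libraries. Of 18 markers of macrophages and blood cells 2 did, and of 16 endothelial markers 5.

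Gene expression differed between female KO and WT MEFs at 1434 of the 12504 genes tested (11.5%), by limma at a Benjamini-Hochberg adjusted p under 0.05. Of these, 704 (5.63% of all genes) were higher and 730 (5.84%) lower in KO. The counts of each gene list below are to be read against these shares of all genes. Most differences were small. The median absolute log2 fold change was 0.13 over all genes and 0.40 over the genes past the threshold, against a median residual SD of 0.11. A log2 fold change of at least 1 in either direction was found for 171 genes past the threshold (1.37%), 99 higher and 72 lower. The median log2 fold change of all genes was -0.023. Under median-of-ratios scaling, which moves that median to 0.0044, 841 of 1418 genes were higher, 59.3% against 49.1% in the main fit. Fewer genes passed with any 1 library left out, namely 814, 835 and 825 without KO replicate 1, 2 or 3, and 790, 820 and 774 without WT replicate 1, 2 or 3. Each of the 1434 genes had groups that did not overlap, as did 33.6% of all genes tested. Genes are named by a fixed rule that takes the largest changes overall and in each list. Those named with a value also passed when any 1 library was left out, unless a smaller number of these 6 fits is given. Values in brackets after a gene are log2 fold changes of log2(TPM+1), KO against WT, and ± is the SD of 3 libraries unless it is marked SE.

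**Figure D1:**
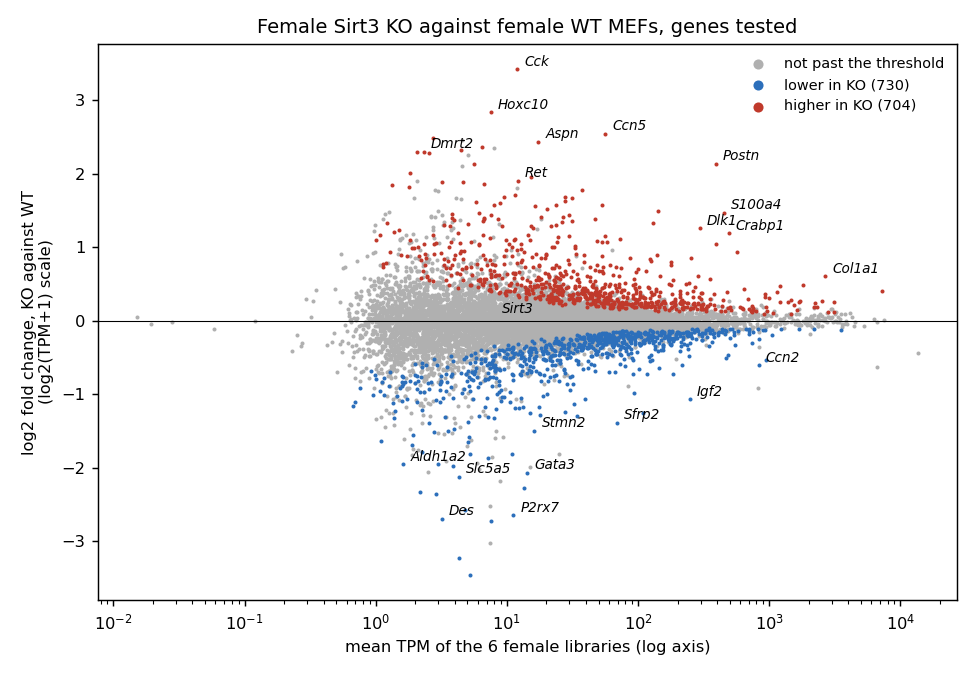
Log2 fold change of female KO against female WT (vertical axis) against the mean TPM of the 6 female libraries (horizontal log axis), 1 point per gene tested, with identifiers of the same symbol shown once and 7 genes at 0 in all female libraries left out. Red points are the 704 genes higher and blue points the 730 genes lower in KO. Postn and S100a4 stand out among abundant genes, while Sirt3 lies on the zero line.

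Cck, Ccn5, Aspn and Postn were among the genes with the largest rise in KO. Cck, which encodes the peptide hormone cholecystokinin, stood at 25.3, 23.5 and 19.01 TPM in the libraries labelled KO and 0.877, 0.735 and 2.24 TPM in those labelled WT (log2 fold change 3.42 ± 0.25 SE, adjusted p = 0.000525). Ccn5, a secreted matricellular protein of the CCN family, was at 96.97, 89.95 and 103 TPM in the libraries labelled KO and 16.9, 15.3 and 15.1 TPM in those labelled WT (log2 fold change 2.54 ± 0.069 SE, adjusted p = 1.43e-05). Aspn encodes asporin, a small leucine-rich proteoglycan, and reached 29.3, 28.9 and 31.7 TPM in the libraries labelled KO and 5.19, 4.74 and 4.34 TPM in those labelled WT (log2 fold change 2.43 ± 0.088 SE, adjusted p = 3.94e-05). All KO libraries lay above all WT libraries in these genes, since no gene past the threshold had overlapping groups. Postn, which encodes the matricellular protein periostin, had the smallest adjusted p of the named genes. It stood at 628, 634 and 656 TPM in the libraries labelled KO and 144, 146 and 146 TPM in those labelled WT (log2 fold change 2.13 ± 0.028 SE, adjusted p = 4.4e-07). Ret, the receptor tyrosine kinase of the GDNF family ligands, was at 20.8, 18.02 and 20.1 TPM in the libraries labelled KO and 4.81, 3.92 and 4.897 TPM in those labelled WT (log2 fold change 1.90 ± 0.11 SE, adjusted p = 0.000201). Gas7, an actin-binding protein first described in growth-arrested cells, was at 24.4, 25.9 and 24.6 TPM in the libraries labelled KO and 5.802, 5.91 and 5.37 TPM in those labelled WT (log2 fold change 1.96 ± 0.076 SE, adjusted p = 5.3e-05). Pgm5, a phosphoglucomutase relative found at adhesion sites, was at 9.72, 8.29 and 11.5 TPM in the libraries labelled KO and 1.38, 1.86 and 1.19 TPM in those labelled WT (log2 fold change 2.13 ± 0.17 SE, adjusted p = 0.000633). These 4 genes were above 1 TPM in every WT library and higher in every KO library. The transcription factors Dmrt2 and Barx1 were almost absent from WT. Dmrt2 stood at 4.37, 4.71 and 4.52 TPM in the libraries labelled KO and 0.176, 0.0981 and 0.1003 TPM in those labelled WT, and Barx1 at 4.79, 4.86 and 4.88 TPM in the libraries labelled KO and 0.0809, 0.271 and 0.277 TPM in those labelled WT.

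Des, P2rx7 and Aldh1a2 were among the genes with the largest fall. Des, which encodes the intermediate filament desmin, was at 0, 0.344 and 0.0391 TPM in the libraries labelled KO and 5.71, 6.46 and 6.603 TPM in those labelled WT (log2 fold change -2.70 ± 0.17 SE, adjusted p = 0.000295). P2rx7, an ion channel opened by extracellular ATP, was at 1.97, 3.19 and 1.899 TPM in the libraries labelled KO and 24.1, 17.2 and 18.5 TPM in those labelled WT (log2 fold change -2.65 ± 0.19 SE, adjusted p = 0.00048). Aldh1a2, the main enzyme of retinoic acid synthesis in the embryo, was at 0.0459, 0.0481 and 0.108 TPM in the libraries labelled KO and 3.39, 3.88 and 2.298 TPM in those labelled WT (log2 fold change -1.95 ± 0.20 SE, adjusted p = 0.00191). KO levels of Des and Aldh1a2 were thus close to 0. Slc5a5, the sodium-iodide symporter, was at 0.896, 0.973 and 1.05 TPM in the libraries labelled KO and 8.15, 7.08 and 7.67 TPM in those labelled WT (log2 fold change -2.13 ± 0.12 SE, adjusted p = 0.000201). Gata3, a zinc finger transcription factor, was at 6.45, 3.87 and 4.33 TPM in the libraries labelled KO and 21.9, 26.2 and 22.2 TPM in those labelled WT (log2 fold change -2.07 ± 0.17 SE, adjusted p = 0.000832). Gatm, which makes guanidinoacetate for creatine synthesis, was at 0.735, 1.27 and 0.916 TPM in the libraries labelled KO and 7.16, 6.98 and 6.14 TPM in those labelled WT (log2 fold change -1.98 ± 0.15 SE, adjusted p = 0.000586). No KO library reached the lowest WT library in any of the 6 genes, as holds for every gene lower past the threshold. Cadm4, an adhesion molecule of the immunoglobulin family, and the poorly characterized Hhipl2 fell as well (-1.88 and -2.37). The pseudogenes Gm49051, Gm13532 and Gm4432 were listed at 0 in all KO libraries and between 2.34 and 14.1 TPM in the WT libraries, and reads of near-identical copies can be divided among such genes.

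The 10 genes with the largest differences in TPM include 3 matrix genes, Postn and both chains of type I collagen. Col1a1, a chain of type I collagen, was at 2127 ± 50.1 TPM in libraries labelled WT and 3227 ± 63.3 TPM in those labelled KO and its partner Col1a2 at 1020.3 ± 22.9 TPM in libraries labelled WT and 1419 ± 30.5 TPM in those labelled KO. S100a11 and S100a4, small calcium-binding proteins, were at 1517 ± 14.5 TPM in libraries labelled WT and 2129 ± 101 TPM in those labelled KO and at 241 ± 26.1 TPM in libraries labelled WT and 664 ± 42.96 TPM in those labelled KO, respectively. Crabp1, a cytoplasmic carrier of retinoic acid, was at 299 ± 9.37 TPM in libraries labelled WT and 683 ± 13.4 TPM in those labelled KO (log2 fold change 1.19 ± 0.032 SE, adjusted p = 1.43e-05). Acta2, the smooth muscle actin of myofibroblasts, was at 2032 ± 18.03 TPM in libraries labelled WT and 2404 ± 59.5 TPM in those labelled KO (log2 fold change 0.24 ± 0.025 SE, adjusted p = 0.00191). Rps27rt and Rpl10-ps3, copies of ribosomal protein genes, were higher in KO as well but can share reads with their parent genes, and Rps27rt passed in 1 of 6 leave-one-out fits.

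**Figure D2:**
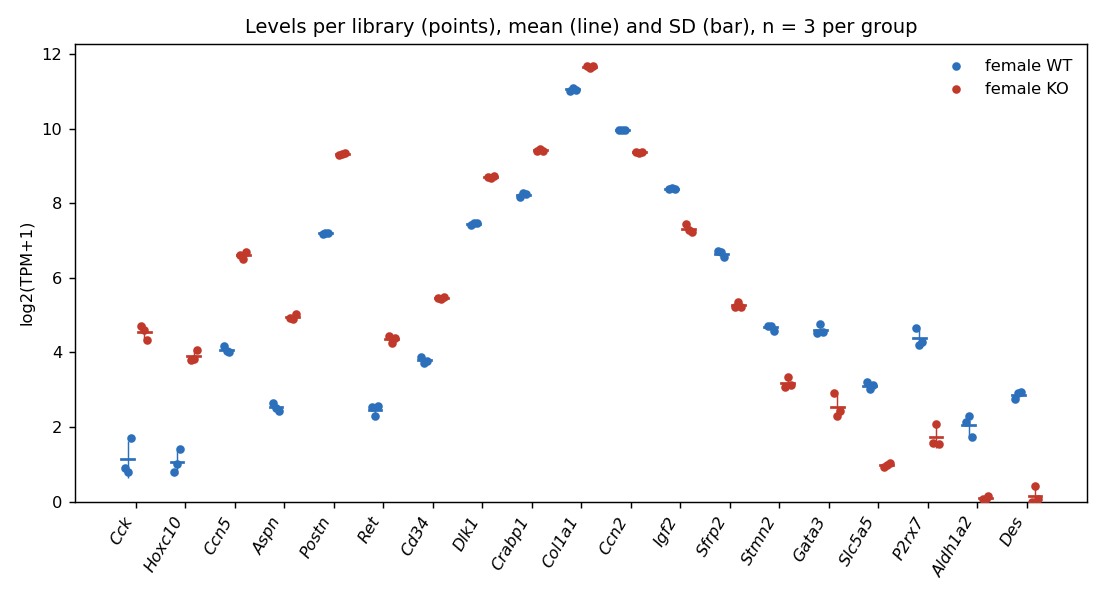
Levels as log2(TPM+1) (vertical axis) of 19 named genes in the 3 female WT (blue) and 3 female KO libraries (red), with the group mean as a line and the SD as a bar. The groups do not overlap for any of these genes, as for every gene past the threshold, and Aldh1a2 and Des lie near 0 in KO.

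The extracellular matrix is the main product of fibroblasts. Of 28 collagen chains tested, 13 were higher and 1 lower in KO, with a median log2 fold change of 0.34. Of 69 matrix glycoproteins and proteoglycans, 32 were higher and 10 lower in KO (median 0.22). The 3 chains of type VI collagen, which forms beaded filaments around cells, rose together. Col6a3 was at 206, 206 and 217 TPM in the libraries labelled KO and 77.4, 71.9 and 73.99 TPM in those labelled WT (log2 fold change 1.48 ± 0.041 SE, adjusted p = 1.43e-05), Col6a1 at 179.6 ± 6.09 TPM in libraries labelled WT and 324 ± 7.49 TPM in those labelled KO and Col6a2 at 132 ± 1.37 TPM in libraries labelled WT and 223 ± 5.75 TPM in those labelled KO. The cartilage collagen Col2a1 (1.26) and the anchoring fibril collagen Col7a1 (0.89) rose too, while the basement membrane chain Col4a1 (-0.25) was the only collagen lower past the threshold. Among the glycoproteins and proteoglycans, Smoc1 (1.89), the large cartilage proteoglycan aggrecan, Acan (1.86), and decorin, Dcn (1.11), rose. Tenascin-C, Tnc (-0.47), the heparan sulfate proteoglycan agrin, Agrn (-0.51), Smoc2 (-0.72) and the growth factor-responsive Ccn2 (-0.61) fell. Ccn2 stood at 660.0, 652 and 662 TPM in the libraries labelled KO and 1006, 1005 and 997 TPM in those labelled WT.

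Of 24 genes for the folding and crosslinking of collagen, 11 were higher and 2 lower in KO (median 0.24). The collagen prolyl hydroxylase P4ha3 (0.91), the lysyl oxidase relatives Loxl3 (0.88) and Loxl1 (0.40), the C-proteinase enhancer Pcolce (0.39) and the secretory coat protein Sec23a (0.41) were higher. Lox itself, which crosslinks collagen and elastin, fell from 581 ± 11.7 to 504 ± 12.3 TPM (log2 fold change -0.20 ± 0.029 SE, adjusted p = 0.00779). The procollagen C-proteinase Tll1 (-0.31) fell as well. Of 30 matrix proteases and inhibitors, 5 were higher and 3 lower in KO, and from 4 to 6 passed with 1 library left out, with a median of -0.013 near that of all genes. Timp3 (0.70), an inhibitor of metalloproteinases, Adamts2 (1.07), which trims procollagen, and the membrane collagenase Mmp14 (0.24) were higher, and the aggrecanase Adamts5 (-0.72) was lower.

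Of 26 fibroblast markers tested, 16 were higher and 1 lower in KO (median 0.41). Collagens, Postn and Dcn are part of this list as well as of the matrix lists. Cd34, a surface sialomucin of fibroblast and progenitor cells, stood at 43.3, 41.8 and 43.9 TPM in the libraries labelled KO and 13.7, 12.03 and 12.6 TPM in those labelled WT (log2 fold change 1.68 ± 0.067 SE, adjusted p = 5.39e-05). Pdpn, the mucin-type glycoprotein podoplanin, was at 10.4, 10.6 and 9.69 TPM in the libraries labelled KO and 3.48, 3.098 and 3.23 TPM in those labelled WT (log2 fold change 1.39 ± 0.098 SE, adjusted p = 0.000444), and Pdgfrb, a receptor for platelet-derived growth factor, at 61.99 ± 0.887 TPM in libraries labelled WT and 112 ± 1.04 TPM in those labelled KO (log2 fold change 0.84 ± 0.033 SE, adjusted p = 5.39e-05). Every KO library was above every WT library for all 3 genes, as for every gene higher past the threshold. Fewer cells of a type and less RNA per cell cannot be told apart in bulk RNA.

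Contractile genes went in both directions. Of 36 tested, 9 were higher and 7 lower in KO, and from 10 to 12 passed with 1 library left out. The median of -0.021 was close to that of all genes. Acta2 (0.24), Myl6 (0.19) and Cnn2 (0.19) were slightly higher. Calponin 1, Cnn1, an actin-binding protein of smooth muscle, was at 92.1, 85.4 and 85.3 TPM in the libraries labelled KO and 138, 154 and 145 TPM in those labelled WT (log2 fold change -0.72 ± 0.053 SE, adjusted p = 0.000511). The gene of the actin-regulated coactivator Mrtfa fell by 0.45 on the log2 scale. Without the mean-variance trend, 4 of these 36 genes passed, 1 higher and 3 lower.

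Cell adhesion genes also divided. Of 33 cadherins and protocadherins, 7 were higher and 6 lower in KO (median 0.18), and from 7 to 9 passed with 1 library left out. Cdh11, the cadherin of mesenchymal cells, was at 185, 183 and 188 TPM in the libraries labelled KO and 76.9, 70.1 and 72.4 TPM in those labelled WT (log2 fold change 1.33 ± 0.042 SE, adjusted p = 2.56e-05). Cdh3 (0.86) was higher too. N-cadherin, Cdh2 (-0.47), and Cdh18 (-1.09) were lower. The clustered genes Pcdhb22 (1.39), Pcdhgb5 (0.90) and Pcdhga10 (-1.96) share exons or sequence with their neighbours and their levels are uncertain. Of 16 integrins 2 were higher, Itga11 (1.17), a collagen receptor subunit, and Itgb5 (0.24), and 2 lower, Itga5 (-0.31) of the fibronectin receptor and Itga3 (-0.44) of a laminin receptor. Of 23 junction genes, 4 were higher and 4 lower in KO, and from 5 to 7 passed with 1 library left out. Plakophilin 1, Pkp1, a desmosome protein, was at 16.4, 14.7 and 13.99 TPM in the libraries labelled KO and 3.81, 3.96 and 4.25 TPM in those labelled WT (log2 fold change 1.68 ± 0.098 SE, adjusted p = 0.000217). Plakoglobin, Jup (-0.43), the tight junction protein F11r (-0.68) and the polarity gene Pard6b (-0.82) were lower.

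Hox genes, which lie in 4 clusters and mark position along the body axis and limbs, were the list with the highest median log2 fold change, 0.64. Of 39 listed genes, 32 were tested, of which 17 were higher and 4 lower in KO. The clusters differed. In the HoxC cluster (chromosome 15, 102936757 to 103036852 of GRCm38, over the genes tested), 8 of 8 genes were higher, with a median of 1.36. Hoxc12, counted among them, reached the filter mainly through the female KO libraries, so its rise is partly fixed by that filter. In the HoxB cluster (chromosome 11, 96271457 to 96354012), 7 of 8 were higher (median 1.19). In the HoxA cluster (chromosome 6, 52155590 to 52260880), 4 of 11 were lower and none was higher (median -0.31). Of 5 HoxD genes 2 were higher.

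The posterior HoxC genes changed most. Hoxc10 stood at 12.9, 13.1 and 15.9 TPM in the libraries labelled KO and 0.725, 0.995 and 1.65 TPM in those labelled WT (log2 fold change 2.83 ± 0.19 SE, adjusted p = 0.000322). Hoxc11 was at 10.7, 11.2 and 12.6 TPM in the libraries labelled KO and 1.46, 1.22 and 1.61 TPM in those labelled WT, and Hoxc12 at 6.52, 6.74 and 11.1 TPM in the libraries labelled KO and 0.4803, 1.08 and 0.824 TPM in those labelled WT. All WT libraries were thus below 2 TPM for these 3 genes, and all KO libraries above 6 TPM. Hoxb9 rose from a higher base, with 50.7, 46.4 and 46.4 TPM in the libraries labelled KO and 14.2, 14 and 15.1 TPM in those labelled WT (log2 fold change 1.66 ± 0.063 SE, adjusted p = 4.93e-05). In the HoxA cluster, Hoxa13, a gene of the distal limb, was at 3.15, 2.48 and 3.93 TPM in the libraries labelled KO and 7.91, 8.84 and 6.598 TPM in those labelled WT (log2 fold change -1.07 ± 0.17 SE, adjusted p = 0.0109). Hoxa7 (-0.74) and Hoxa10 (-0.36) also fell. In the male pair, Hoxc10 and Hoxc11 had log2 fold changes of 0.13 and -0.34, and the sex by genotype interaction passed for both (adjusted p = 2.91e-05 and 2.11e-05).

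**Figure D3:**
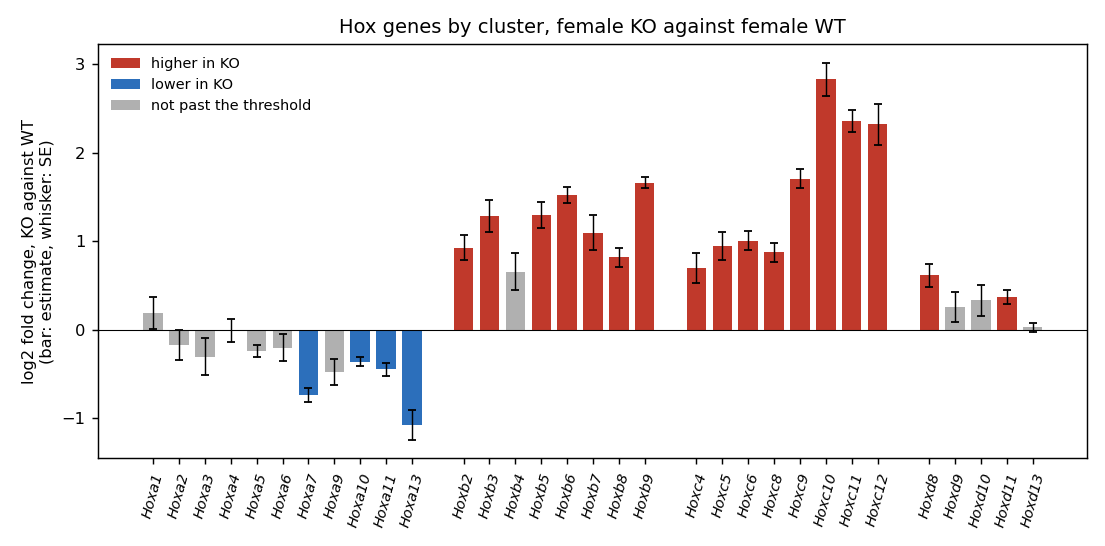
Log2 fold change of each Hox gene tested, female KO against female WT (vertical axis), ordered by cluster and paralogue number, with the SE as a whisker. Red bars are higher, blue bars lower and grey bars not past the threshold, and the HoxB and HoxC genes rise to 1.66 and 2.83 while HoxA genes lie mostly below 0.

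Other transcription factors of body position moved in both directions. Of 54 tested, 17 were higher and 11 lower in KO, and from 17 to 22 passed with 1 library left out, with a median of -0.022. The limb gene Shox2 was at 22.2, 22.8 and 30.3 TPM in the libraries labelled KO and 6.697, 8.93 and 7.83 TPM in those labelled WT (log2 fold change 1.56 ± 0.15 SE, adjusted p = 0.00146). Hand2, which sets the posterior limb and branchial arch, was at 10.96, 10.1 and 9.33 TPM in the libraries labelled KO and 3.29, 2.99 and 3.602 TPM in those labelled WT (log2 fold change 1.38 ± 0.11 SE, adjusted p = 0.00077). The ventral ectoderm and somite gene En1 (1.17), Irx2 (1.15) and Msx1 (1.05) were higher as well. Gata3 and Wt1 fell in KO, as did Lmx1b (-1.104, past the threshold in 0 of 6 leave-one-out fits), the gene of the dorsal limb. Sox2, a factor of neural and stem cells, rose from 2.202 ± 0.2198 to 6.31 ± 0.161 TPM, and Sox4 (-0.39) fell.

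Markers of other cell types were checked list by list. Of 19 epithelial and mesothelial markers, 8 reached the filter, of which 6 were lower and none was higher (median -1.07), and their summed level ran from 49.1 to 49.8 TPM in the WT and from 19.1 to 22.1 TPM in the KO libraries. Msln, which encodes mesothelin of the mesothelium, was at 5.91, 5.26 and 5.73 TPM in the libraries labelled KO and 13.5, 11.6 and 12.8 TPM in those labelled WT (log2 fold change -1.04 ± 0.096 SE, adjusted p = 0.00132). Wt1, a transcription factor of mesothelium and kidney, was at 0.682, 0.271 and 0.485 TPM in the libraries labelled KO and 3.94, 2.91 and 3.17 TPM in those labelled WT (log2 fold change -1.55 ± 0.18 SE, adjusted p = 0.00337). The simple epithelial keratins Krt19 (-1.104) and Krt18 (-1.40) fell too. The endothelial genes Kdr (-1.06), a receptor for VEGF, and Eng (-1.04), a coreceptor for TGF-beta, were the 2 of 5 that passed. Of 7 neural and glial markers 3 fell, Stmn2 (-1.50), Nes (-0.71) and Map2 (-0.71), and Sox2 rose. Stmn2, a tubulin-binding protein of neurons, was at 7.37, 9.05 and 7.69 TPM in the libraries labelled KO and 25.2, 25.3 and 22.8 TPM in those labelled WT. The 4 of 10 cartilage and bone markers that rose include Acan and Col2a1, and 1 fell, and from 3 to 4 passed with 1 library left out. Of 7 adipocyte markers 3 fell, and from 0 to 2 passed with 1 library left out. Of 4 muscle markers Des fell and Tnnt3 (1.17, past the threshold in 1 of 6 leave-one-out fits) rose, and of 2 macrophage markers none passed. Many defining markers were listed at 0 in all female libraries, among them Cldn5 and Sox17 of endothelium, Adgre1 and C1qa of macrophages, Myog and Myf5 of muscle, Adipoq of fat cells and Sox10 of glia. Cdh1 and Krt8 of epithelium stayed under 1 TPM. Summed levels ran from 51.2 to 62.4 TPM (WT) and from 35.5 to 51.5 TPM (KO) for the endothelial list, and from 199 to 211 TPM (WT) and from 119 to 136 TPM (KO) for the neural list. How far a different mix of cells bears on the matrix and Hox genes was not tested.

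Genes of secreted signals and their antagonists changed gene by gene. Of 47 genes of the TGF-beta and BMP pathway, 8 were higher and 4 lower in KO, and from 7 to 9 passed with 1 library left out. Their median of 0.023 ran from 0.0057 to 0.079 in these fits. Grem1, a BMP antagonist, was at 67.7, 65.4 and 71.9 TPM in the libraries labelled KO and 117, 114 and 111 TPM in those labelled WT (log2 fold change -0.73 ± 0.046 SE, adjusted p = 0.000292). Tgfb3 (0.52) and Id4 (0.94) were higher. Of 48 Wnt pathway genes, 6 were higher and 4 lower in KO, and from 6 to 8 passed with 1 library left out. The shares past the threshold were 25.5% for TGF-beta and BMP genes and 20.8% for Wnt genes, against 11.5% of all genes. Sfrp2, a secreted Wnt modulator, was at 36, 39.9 and 36.5 TPM in the libraries labelled KO and 104, 102 and 93.5 TPM in those labelled WT (log2 fold change -1.39 ± 0.061 SE, adjusted p = 7e-05). The antagonists Dkk3 (0.78) and Apcdd1 (0.73) and the ligand Wnt5a (0.59) rose, whereas Wnt10b (-0.56) and the transcription factor Tcf7 (-0.67) fell.

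Of 40 genes of FGF and receptor tyrosine kinase signalling, 6 were higher and 7 lower in KO. The feedback inhibitors Spry1 (1.09), Dusp6 (0.44) and Dusp4 (0.46) were higher, and Dusp5 (-0.52) and the EGF family ligands Areg (-0.997) and Ereg (-0.46) lower. In the insulin and IGF axis 3 of 21 genes were lower and 1 was higher. Igf2, the fetal growth factor expressed from the paternal allele, was at 174, 155 and 149 TPM in the libraries labelled KO and 331, 341 and 334 TPM in those labelled WT (log2 fold change -1.07 ± 0.057 SE, adjusted p = 0.000171). Igfbp4, which binds IGFs, was at 41.4 ± 3.51 TPM in libraries labelled WT and 22.4 ± 2.299 TPM in those labelled KO, and the protease Htra1 (0.73) rose. Dlk1, another paternally expressed gene and a Notch-related inhibitor of fat cell formation, was at 417, 410.4 and 426 TPM in the libraries labelled KO and 171, 175 and 177 TPM in those labelled WT (log2 fold change 1.26 ± 0.028 SE, adjusted p = 9.1e-06). Igf2 and Dlk1, both imprinted, thus moved in opposite directions. Of 22 imprinted genes 2 rose and 3 fell, and from 3 to 4 passed with 1 library left out. Of 24 Notch and Hedgehog genes, 6 were higher and 1 lower in KO, and from 2 to 4 passed with 1 library left out, with the ligand Jag1 (0.80) and the Hedgehog coreceptor Gas1 (0.50) among those higher.

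Guidance cues and receptors showed no common direction, with 6 higher and 8 lower of 54 (from 6 to 8 called with 1 library left out). The Slit ligand Slit3 (1.097) and the semaphorin receptor Nrp2 (0.41) rose, and the Slit receptor Robo1 (-0.68) fell. Of 57 G protein-coupled receptors, 7 were higher and 4 lower in KO. Adra1d, an adrenergic receptor, was at 38.7, 36.5 and 38.5 TPM in the libraries labelled KO and 14.8, 13.6 and 14.96 TPM in those labelled WT (log2 fold change 1.34 ± 0.063 SE, adjusted p = 9.76e-05). The endothelin receptor Ednra (1.17), the sphingosine-1-phosphate receptor S1pr3 (0.999) and the thrombin receptor F2r (0.36) rose, and the serotonin receptors Htr1b (-0.56) and Htr2a (-0.64) fell. The potassium channel genes Kcnf1 (0.83) and Kcnab1 (0.64) were 2 of the 6 ion channel genes higher in KO of 53 tested, and 3 were lower, and from 4 to 6 passed with 1 library left out.

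Immediate early genes, which serum and growth factors switch on within minutes, had the lowest median of the lists with at least 20 genes. Of 27 tested, 2 were higher and 14 lower in KO (median -0.32), and from 10 to 12 passed with 1 library left out. Arc was at 5.295, 5.64 and 6.54 TPM in the libraries labelled KO and 10.6, 10.5 and 11.02 TPM in those labelled WT (log2 fold change -0.78 ± 0.10 SE, adjusted p = 0.00529). Ptgs2, which encodes the inducible cyclooxygenase, was at 113, 110.2 and 111 TPM in the libraries labelled KO and 182, 176 and 169 TPM in those labelled WT (log2 fold change -0.65 ± 0.037 SE, adjusted p = 0.000201), and Fosl2 (-0.48), a partner of Jun, fell too. RefSeq promoter windows of these genes, 250 bases before to 50 after a start site, were searched for the CArG box bound by serum response factor. It was found in 2 of the 20 genes matched, and in 1 of the 10 of these past the threshold. The share was 1.64% of all tested genes matched and 1.63% of single promoter windows. Of 25 targets of the Hippo and YAP pathway, 8 were lower and none was higher (median -0.15). Ccn2 is one of them, as are Ajuba (-0.46), Crim1 (-0.45) and Gadd45b (-0.62).

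Interferon-stimulated genes respond to viral and cytokine signals. Of 45 tested, 2 were higher and 10 lower in KO (median -0.21), and from 6 to 11 passed with 1 library left out. Isg15, a ubiquitin-like modifier, was at 64.2, 56 and 66.9 TPM in the libraries labelled KO and 121, 135 and 116 TPM in those labelled WT (log2 fold change -0.98 ± 0.083 SE, adjusted p = 0.000901). Usp18, which removes Isg15 from proteins, was at 11.9, 12.2 and 14.6 TPM in the libraries labelled KO and 20.98, 27.4 and 22.3 TPM in those labelled WT (log2 fold change -0.82 ± 0.12 SE, adjusted p = 0.0096). Ifi27 went the other way (0.67). Of 18 antigen presentation genes 4 were lower, all class I genes of chromosome 17, namely H2-K1 (-0.49), H2-D1 (-0.23, past the threshold in 2 of 6 leave-one-out fits), H2-Q7 (-0.94) and H2-Q6 (-0.96). H2-Q6 and H2-Q7 are near-identical and reads may be divided between them. Of 39 chemokines, cytokines and complement genes, 5 were higher and 5 lower in KO. The monocyte chemokine Ccl7 was at 41.6, 40.2 and 44.5 TPM in the libraries labelled KO and 14.5, 11.4 and 13.02 TPM in those labelled WT (log2 fold change 1.63 ± 0.093 SE, adjusted p = 0.000201), and its neighbour in function Ccl2 at 36.2 ± 2.91 TPM in libraries labelled WT and 61.9 ± 1.93 TPM in those labelled KO (log2 fold change 0.76 ± 0.066 SE, adjusted p = 0.000965). Cxcl14 (1.07), Cxcl12 (0.22) and the decoy receptor Tnfrsf11b (0.84) rose, and Cxcl10 (-0.61), itself induced by interferon, fell.

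The endoplasmic reticulum (ER) folds secreted proteins. Of 53 ER chaperone and unfolded protein response genes, 14 were higher and none was lower (median 0.11). Pdia6, a disulfide isomerase, was at 321, 314 and 316 TPM in the libraries labelled KO and 225, 229 and 236 TPM in those labelled WT (log2 fold change 0.46 ± 0.029 SE, adjusted p = 0.000294). The transcription factor Xbp1 (0.50), the degradation gene Herpud1 (0.40) and the isomerase Pdia5 (0.32) rose. The 3 chaperone genes that follow were named for their promoters after their values were seen, Hsp90b1 (0.30), Calr (0.31) and Hspa5 (0.20, past the threshold in 2 of 6 leave-one-out fits). The ER stress element (ERSE), CCAAT followed after 9 bases by CCACG on either strand, is a textbook site of this response. It was found in the RefSeq promoter windows of 9 of the 41 list genes matched, 4 of the 12 matched genes past the threshold among them. The share was 0.181% of all tested genes matched and 0.119% of all 32851 windows. The list holds known targets of the response, so this is a description. The windows of 3 of these genes are printed 5′ to 3′ on the gene's strand in GRCm38.p6, with matches to the ERSE in capitals. They lie at chr12:17266339-17266638 (plus strand), chr10:86705395-86705694 (minus strand) and chr2:34771840-34772139 (plus strand), and the Hsp90b1 window holds a match on each strand.
Pdia6: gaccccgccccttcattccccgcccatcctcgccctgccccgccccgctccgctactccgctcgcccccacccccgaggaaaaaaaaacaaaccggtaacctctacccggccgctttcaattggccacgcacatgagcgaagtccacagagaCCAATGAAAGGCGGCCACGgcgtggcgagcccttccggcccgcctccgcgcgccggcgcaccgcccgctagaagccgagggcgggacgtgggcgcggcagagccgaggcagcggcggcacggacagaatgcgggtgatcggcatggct
Hsp90b1: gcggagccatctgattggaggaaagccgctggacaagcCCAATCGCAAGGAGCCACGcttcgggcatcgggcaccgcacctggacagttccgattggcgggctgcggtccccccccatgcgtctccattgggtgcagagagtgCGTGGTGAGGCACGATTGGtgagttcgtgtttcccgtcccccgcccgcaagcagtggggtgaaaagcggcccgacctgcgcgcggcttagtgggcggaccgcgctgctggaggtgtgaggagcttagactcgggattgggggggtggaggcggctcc
Hspa5: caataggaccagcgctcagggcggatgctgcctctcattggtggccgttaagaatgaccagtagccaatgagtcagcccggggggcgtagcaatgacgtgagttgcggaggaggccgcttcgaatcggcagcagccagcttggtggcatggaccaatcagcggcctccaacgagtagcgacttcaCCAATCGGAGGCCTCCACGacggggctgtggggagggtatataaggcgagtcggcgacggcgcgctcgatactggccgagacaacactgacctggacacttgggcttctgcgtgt

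Of 36 genes of cholesterol synthesis and uptake, 10 were higher and none was lower (median 0.12). With 1 library left out, from 5 to 8 passed, all of them higher. Cyp51, which demethylates lanosterol, was at 54.03, 49.6 and 52.5 TPM in the libraries labelled KO and 36.8, 36.1 and 38.7 TPM in those labelled WT (log2 fold change 0.47 ± 0.053 SE, adjusted p = 0.00279). Fdps, which makes farnesyl diphosphate, was at 109 ± 4.24 TPM in libraries labelled WT and 142 ± 3.75 TPM in those labelled KO (log2 fold change 0.38 ± 0.041 SE, adjusted p = 0.00245). Hmgcs1, which makes the precursor of mevalonate, was named for its promoter after its values were seen (log2 fold change 0.27 ± 0.043 SE, adjusted p = 0.0111). Sterol-sensing Srebp factors bind sterol regulatory elements (SRE), searched here as TCACNCCAC on both strands. A match was found in 1 of the 27 list genes matched to a promoter window, in 1.43% of all tested genes matched and in 1.24% of all windows. The match is shown in capitals in the Hmgcs1 window at chr13:119690101-119690400 (plus strand, GRCm38.p6, RefSeq).
Hmgcs1: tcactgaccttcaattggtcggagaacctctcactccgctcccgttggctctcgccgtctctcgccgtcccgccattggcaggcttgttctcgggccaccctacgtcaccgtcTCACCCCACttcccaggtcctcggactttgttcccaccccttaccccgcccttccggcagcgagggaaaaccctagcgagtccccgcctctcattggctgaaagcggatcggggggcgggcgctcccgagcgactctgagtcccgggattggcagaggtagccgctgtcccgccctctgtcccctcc

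Of 32 genes of fatty acid and triglyceride synthesis, 4 were higher and 1 lower in KO, 15.6%, and from 3 to 4 passed with 1 library left out. The desaturase Scd2 (0.40), the elongase Elovl6 (0.47) and the fatty acid carrier Fabp5 (0.39) rose. Of 31 glycolysis genes 4 were higher and 2 lower, 19.4% against 11.5% of all genes, and from 1 to 4 passed with 1 library left out. The platelet-type phosphofructokinase Pfkp was at 22.1, 20.3 and 18.8 TPM in the libraries labelled KO and 31.5, 30.2 and 30.8 TPM in those labelled WT (log2 fold change -0.58 ± 0.072 SE, adjusted p = 0.00445). Of 27 genes of the pentose phosphate, glycogen and nucleotide sugar pathways, 4 were higher and 2 lower in KO, 22.2%, and from 2 to 3 passed with 1 library left out. Among them were Pgm2 (0.36) and the hyaluronan synthase Has2 (-0.38). Of 41 genes of sphingolipid and phospholipid synthesis, 1 was higher and 3 lower in KO, 9.76%, and from 1 to 3 passed with 1 library left out.

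Genes of mitochondria, where Sirt3 acts, were read against the 11.5% of all genes past the threshold. None of the 13 protein genes of mitochondrial DNA passed. Of 81 nuclear genes of the respiratory chain and ATP synthase, 5 were higher and 1 lower in KO (median 0.039), and from 0 to 4 passed with 1 library left out. This is a share of 7.41%. Of 78 mitochondrial ribosomal proteins, 2 were higher and 6 lower in KO, a share of 10.3%, and from 2 to 7 passed with 1 library left out. Mrps6 (0.29) was higher. Of 52 genes of mitochondrial folding, import and dynamics 1 was higher and 2 were lower, of 39 genes of the TCA cycle 2 and 1, and of 33 genes of fatty acid oxidation 1 and 3. The shares were 5.77%, 7.69% and 12.1%. With 1 library left out, from 0 to 3, from 0 to 2 and from 0 to 1 genes of these 3 lists passed. Among 18 sirtuin and NAD synthesis genes the mitochondrial Sirt4 (-0.52, past the threshold in 1 of 6 leave-one-out fits) was lower and none was higher, a share of 5.56%.

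Genes that build ribosomes were lower where they passed. Of 48 ribosome biogenesis genes, 13 were lower and none was higher (median -0.13), falling to 5 under median-of-ratios scaling and from 4 to 8 with 1 library left out. Nop2 and Noc2l, factors of the large subunit, were at 180.0 ± 2.52 TPM in libraries labelled WT and 156 ± 3.02 TPM in those labelled KO and at 148 ± 3.28 TPM in libraries labelled WT and 127 ± 1.67 TPM in those labelled KO. Wdr43 (-0.25) of the small subunit pathway and Polr1e (-0.32) of RNA polymerase I fell as well. Of 81 cytosolic ribosomal proteins, 9 were higher and 1 lower in KO, and from 5 to 7 passed with 1 library left out. The paralogue Rpl39l was listed at 0 in all WT libraries and at 2.65, 3.35 and 1.93 TPM in KO. The X-linked Rps4x (0.22), and Rps29 (0.26) and Rpl37a (0.25), rose, and Rpl27 (-0.22) fell. Of 37 aminoacyl-tRNA synthetases, which load amino acids onto tRNA, 5 were lower and none was higher, but only 1 under median-of-ratios scaling and from 0 to 2 with 1 library left out. Of 46 splicing factors 4 were lower (from 0 to 2 with 1 library left out). Of 40 cytosolic heat shock chaperones, 1 was higher and 4 lower in KO, and from 1 to 3 passed with 1 library left out, a split that became 2 and 0 under median-of-ratios scaling, with Hspb8 (0.53) higher. Of 48 proteasome subunits 1 was higher and 2 were lower, and from 1 to 2 passed with 1 library left out. Psmd8 (-0.32) was among those lower. The shares past the threshold were 12.3% for cytosolic ribosomal proteins, 13.5% for the synthetases and 8.7% for splicing factors. For heat shock chaperones and proteasome subunits they were 12.5% and 6.25%, against 11.5% of all genes.

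Of 50 DNA replication and G1/S genes, 7 were higher and none was lower (median 0.046), 14% against 11.5% of all genes, and from 2 to 3 passed with 1 library left out. Mcm2 (0.18) of the replicative helicase was higher. Of 50 G2/M and mitosis genes, 4 were lower and none was higher (median -0.065), 8% in all, and from 0 to 1 passed with 1 library left out. Of 33 p53 targets, 6 were higher and 3 lower in KO, and from 4 to 5 passed with 1 library left out. Cdkn1a, the cell cycle inhibitor p21, was at 169, 149.7 and 164 TPM in the libraries labelled KO and 132, 123.5 and 125 TPM in those labelled WT (log2 fold change 0.34 ± 0.054 SE, adjusted p = 0.0117), and Phlda3 (0.49) and Ccng1 (0.37) also rose, while Plk2 (-0.28) fell. Clustered histone genes give few polyadenylated transcripts in dividing cells. Of 38 tested, 7 were lower and none was higher (median -0.30), and from 4 to 9 passed with 1 library left out. Hist1h2bq was at 1.09, 0.799 and 1.97 TPM in the libraries labelled KO and 15.2, 11.3 and 15.4 TPM in those labelled WT (log2 fold change -2.73 ± 0.22 SE, adjusted p = 0.000731), and Hist1h2bc (-1.03) and Hist1h2ah (-1.28) fell. Histone copies are similar in sequence and their levels are uncertain. Of 319 Zfp genes 3 were higher and 7 lower, 3.13% against 11.5% of all genes, and from 2 to 5 passed with 1 library left out. Of 44 DNA repair genes 1 was higher and 1 lower, a share of 4.55% (from 1 to 3 with 1 library left out). None of 6 genes tested that escape X inactivation passed, and 1 of 19 circadian clock genes was higher, a share of 5.26% (from 0 to 1 with 1 library left out).

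The integrated stress response acts through the transcription factor Atf4 on amino acid and redox genes. Of 37 effectors, 2 were higher and 5 lower in KO (median -0.095), and from 2 to 4 passed with 1 library left out. Atf4 (-0.13, past the threshold in 0 of 6 leave-one-out fits) itself was slightly lower. The amino acid transporter Slc7a3 (-0.70) fell, as did Cth, which makes cysteine from cystathionine, with 23.2, 17.9 and 20.9 TPM in the libraries labelled KO and 34.5, 34.4 and 34.5 TPM in those labelled WT (log2 fold change -0.72 ± 0.094 SE, adjusted p = 0.00541). Of 26 genes of serine, folate, proline and asparagine synthesis 4 were lower and none was higher, 15.4% against 11.5% of all genes. From 2 to 3 passed with 1 library left out. Shmt2 (-0.18) was among them. In the male pair 29 of the 37 effectors were higher and none was lower, against 21.6% of all genes called there, and 31 of the 37 passed the sex by genotype interaction, against 13.0% of all genes.

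Redox and metal genes divided. Of 52 Nrf2 targets and glutathione genes, 7 were higher and 4 lower in KO, and from 4 to 8 passed with 1 library left out. Ephx1, an epoxide hydrolase, was at 23.4, 24.2 and 23.8 TPM in the libraries labelled KO and 12.1, 13.3 and 12.96 TPM in those labelled WT (log2 fold change 0.85 ± 0.065 SE, adjusted p = 0.000586). The ER peroxidases Gpx8 (0.48) and Prdx4 (0.29) rose, and the ferritin light chain Ftl1 (-0.13) fell. Of 25 metal handling genes, 1 was higher and 4 lower in KO, and from 3 to 7 passed with 1 library left out. The metallothioneins Mt2 (-0.56) and Mt1 (-0.27, past the threshold in 5 of 6 leave-one-out fits) were lower and Steap1 (0.52) higher. Of 42 hypoxia factors and targets, 5 were higher and 5 lower in KO, and from 4 to 7 passed with 1 library left out. P4ha1 (0.23) was higher and Cited2 (-0.40) lower. The shares past the threshold were 21.2% for Nrf2 and glutathione genes, 20% for metal handling genes and 23.8% for hypoxia genes. Of 80 lysosome and autophagy genes, 3 were higher and 8 lower in KO, and from 3 to 6 passed with 1 library left out. This is a share of 13.75% against 11.5% of all genes. The sulfatase Arsb (0.46) rose, and Grn (-0.33) and Ctsa (-0.25) fell. Of 188 solute carriers, 4 were higher and 13 lower, a share of 9.04% against 11.5% of all genes, and from 5 to 11 passed with 1 library left out. The taurine transporter Slc6a6 (0.41) was among those higher.

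**Figure D4:**
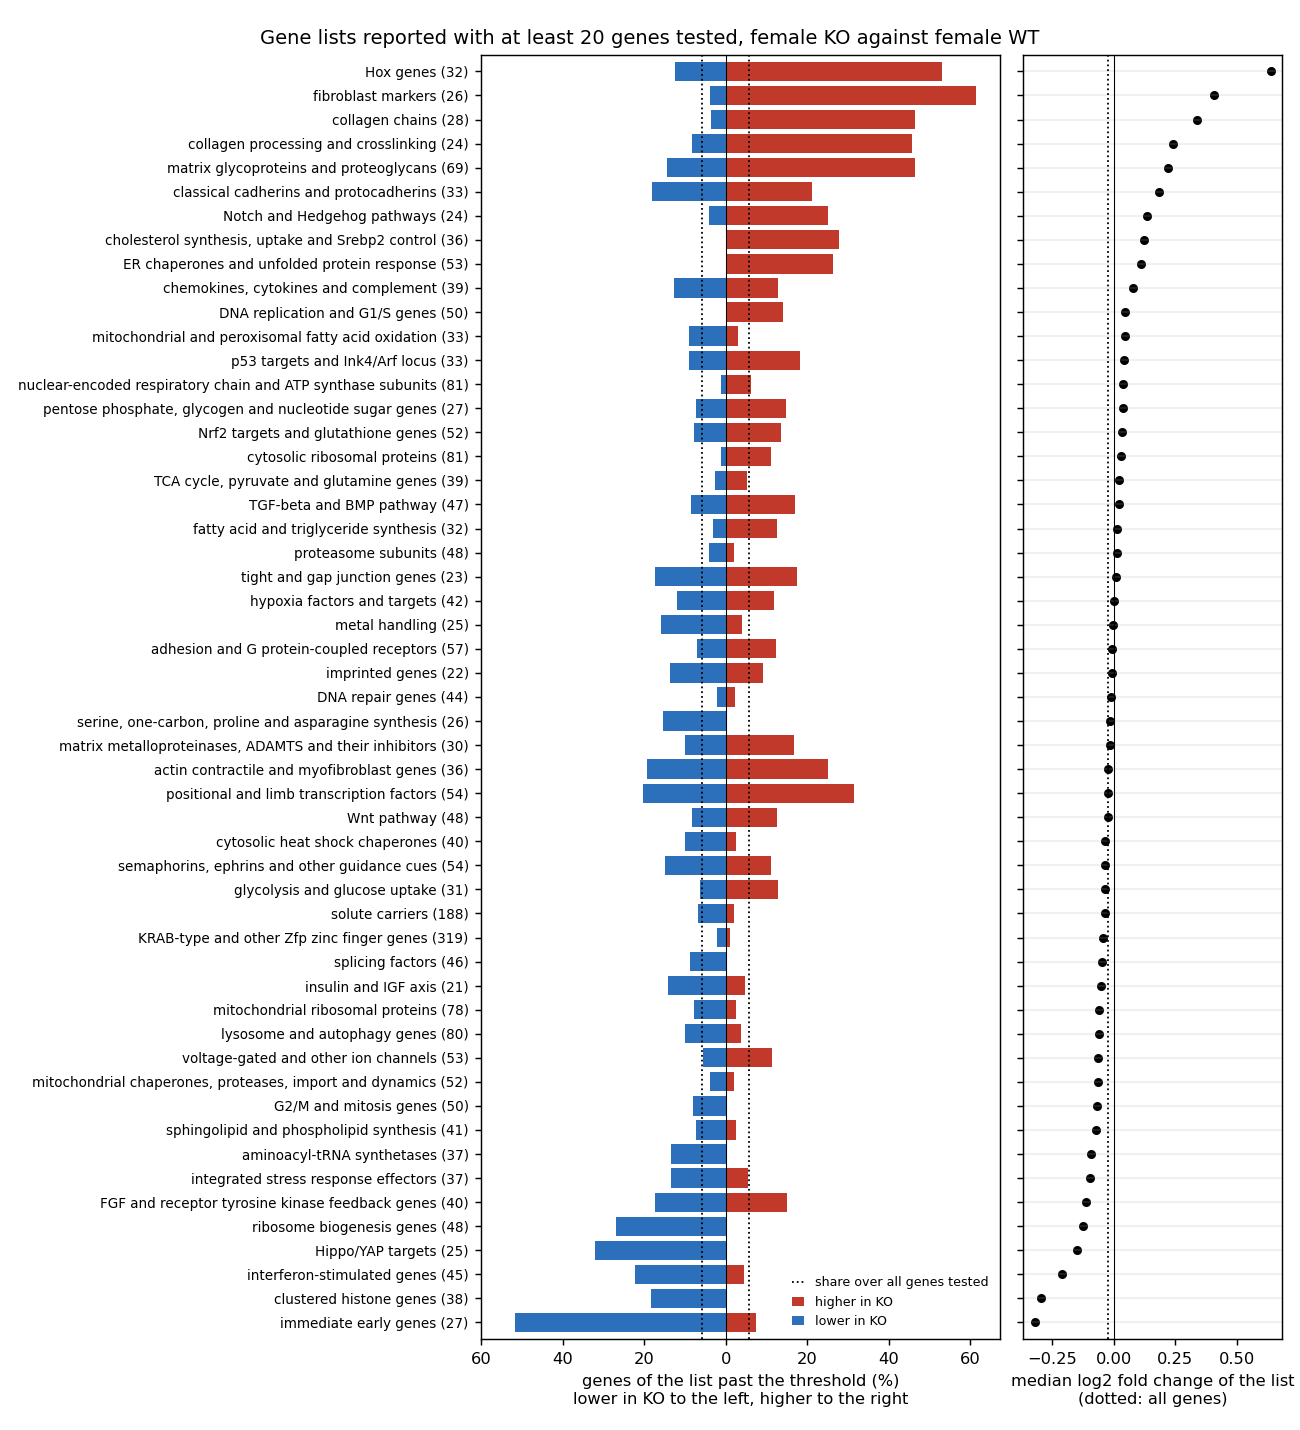
Share of the genes of each list past the threshold (left panel, percent), higher in KO to the right in red and lower to the left in blue, and the median log2 fold change of each list (right panel), for the lists reported here with at least 20 genes tested. Dotted lines mark the shares over all genes, 5.63% and 5.84%, and their median, -0.023. Hox, fibroblast marker and collagen lists lie at the top, immediate early genes at the bottom.

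The chromosomes differed in their medians. The shares past the threshold were 13.8% for chromosome 17 and 14.8% for X, against 11.5% of all genes. Chromosomes 3 (14.4%) and 15 (13.9%) had similar shares. Over all genes, 5.63% were higher and 5.84% lower in KO. Of 602 genes tested on chromosome 17, 72 were lower and 11 higher in KO, with a median log2 fold change of -0.092, the lowest of the autosomes and X. Cut into 4 blocks of equal gene number along its length, each block had a negative median, from -0.12 to -0.069. Of 405 genes on the X chromosome, 47 were higher and 13 lower (median 0.078, the highest). The first of 4 such blocks, from 6399854 to 48463132 of GRCm38, had a median of -0.0057, and the other 3 blocks had medians from 0.092 to 0.10. Relative to the mean of the 12 libraries, the median X-linked gene was at 0.0638, 0.0567 and 0.0828 in female KO and at -0.0117, -0.0323 and -0.0431 in female WT libraries on the log2 scale. Male WT libraries were at -0.02104, -0.0431 and -0.0416. Chromosome 17 was at 0.0393, 0.0525 and 0.0492 in female WT and at -0.0246, -0.0264 and -0.03203 in female KO libraries. The female KO libraries thus stand above the others on X, and the female WT libraries above the others on chromosome 17. Such shifts were not limited to X and 17. Female KO libraries were below the others on chromosome 7, at -0.0439, -0.0369 and -0.0425. Female WT libraries were below the others on chromosome 12, at -0.0437, -0.0407 and -0.0521. With 1 library left out, from 29 to 35 X-linked and from 40 to 52 chromosome 17 genes passed. Copy number was not measured, and its part in these shifts was not tested.

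**Figure D5:**
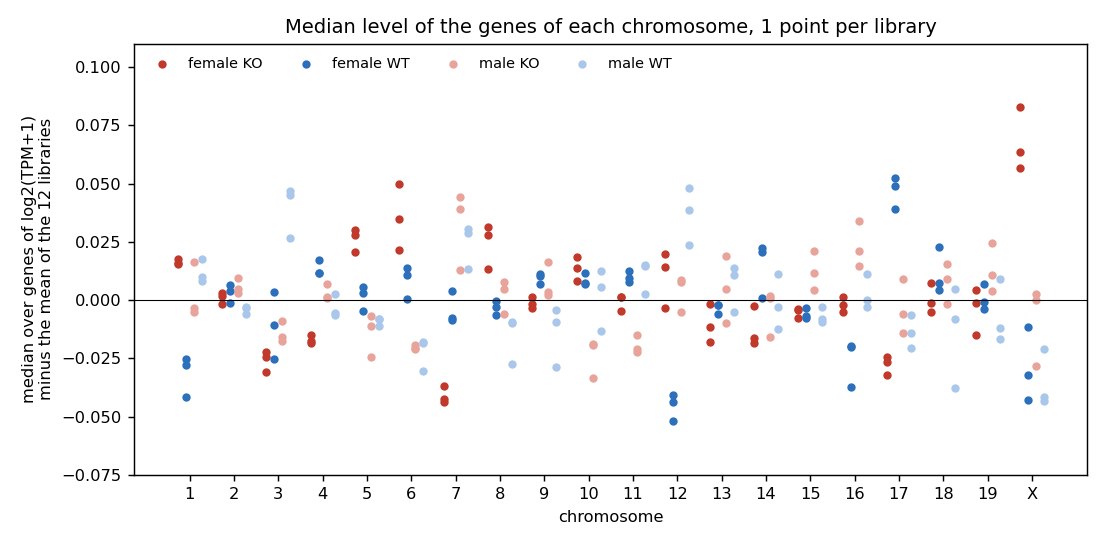
Median over the genes tested of each chromosome (horizontal axis) of log2(TPM+1) minus its mean over the 12 libraries (vertical axis), 1 point per library, after the median over all genes was set to 0 in each library. Female KO libraries lie between 0.057 and 0.083 on X, above the other 9, and female WT libraries between 0.039 and 0.052 on chromosome 17.

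The female and male comparisons share no library and were set side by side. Among all genes tested, 21.6% passed in the male and 11.5% in the female pair. Of the 1434 genes past the threshold in the female pair, 730 also passed in the male pair. They made up 50.9% of the female and 26.97% of the 2707 male calls. Of the 730, 304 were higher and 289 lower in both pairs, and 137 had opposite signs. The interaction passed for 577 of the female calls (40.2%), against 13.0% of all genes, and the interaction holds the female contrast itself. Postn moved alike in both pairs. It stood at 536, 575 and 554 TPM in the libraries labelled KO and 123.5, 122 and 122 TPM in those labelled WT in the male pair, with an interaction of -0.039 ± 0.043 (SE). P2rx7 and Slc5a5 fell in both (-2.61 and -1.96 in males). Of the 13 ribosome biogenesis genes lower in females, 12 were lower in males, as 11 of the 14 ER genes were higher. Over the whole lists, 22 of 48 biogenesis genes were lower and 19 of 53 ER genes higher in males. Of the 21 Hox genes past the threshold in females, 3 passed with the same sign in males and 5 with the opposite sign. Of the 28 positional factors, 11 and 10 did. Among all 32 Hox genes tested, 10 were higher and 3 lower in males, and among all 54 positional factors 21 and 11.

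Several genes fell in 1 pair and rose in the other. Hand2 in males stood at 3.61, 4.33 and 3.45 TPM in the libraries labelled KO and 18.1, 17.7 and 16.7 TPM in those labelled WT (log2 fold change -1.95, adjusted p = 4.01e-05), the reverse of the female order. Aqp1, a water channel, was at 43.3, 38.6 and 42.04 TPM in the libraries labelled KO and 18.2, 17.4 and 18.5 TPM in those labelled WT in the female pair and at 11.6, 12.3 and 12.6 TPM in the libraries labelled KO and 52.7, 57.6 and 56.4 TPM in those labelled WT in the male pair. Cthrc1, a secreted collagen-associated protein, was at 20.02, 21.7 and 17.8 TPM in the libraries labelled KO and 47.2, 44.4 and 42.7 TPM in those labelled WT in the female pair and at 53.4, 53.1 and 57.7 TPM in the libraries labelled KO and 17.2, 15.9 and 15.3 TPM in those labelled WT in the male pair. Dlk1 and Sfrp2 also had opposite signs, with -0.67 and 1.28 in males. For Hand2, Aqp1 and Cthrc1, the 2 groups with high levels were thus 1 KO and 1 WT group.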

How the data were processed

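Polyadenylated RNA of 12 MEF cultures was sequenced in paired ends. Reads were trimmed and quantified per gene by the authors with Salmon (version 1.10.1 in the submitters' processing notes) on GRCm38, and the deposited table holds TPM for 34866 genes, with no counts and no authors' comparisons. TPM is relative within a library, so a rise in abundant genes lowers the share of others, and read depth is not kept. Gene positions came from GENCODE M21 (99.4% of identifiers matched), and promoter sequences from RefSeq on GRCm38.p6.

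Groups were taken from the labels. Genes whose TPM averaged 1 or more across all 12 libraries (12504 genes) were tested on log2(TPM + 1) in limma 3.58.1 (R 4.3.3), with an empirical Bayes trend, 2-sided moderated tests and Benjamini-Hochberg adjustment over all 12504 genes. Fold changes on this scale understate those of low genes. The female comparison used the 6 female libraries, the male comparison the 6 male libraries, and the interaction all 12. The study's own count test could not be used, since TPM are not counts. The code was tested on simulated data. Cultures of 1 group were seeded in triplicate, so p-values measure only the spread between these cultures, which may be technical.

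The comparison, its 70 gene lists and the alternatives were chosen with earlier results of these data known. Named genes were, among genes past the threshold, the 15 highest and 15 lowest by log2 fold change, the 10 with the largest difference in TPM, up to 5 in each direction per list, the 5 highest and 5 lowest by interaction, and, regardless of the test, Sirt3 and Y-linked genes. Lists with fewer than 2 calls also gave the 2 genes of highest mean TPM. A few genes and 1 list are not reported here. Genes that passed in all 6 fits with 1 library left out were preferred for the text. Alternatives were another pseudocount (0.1), other filters (none, 5 TPM, or 1 TPM over the female libraries), median-of-ratios scaling, quantile normalization, no variance trend, all 12 libraries in a single fit, protein-coding genes only, the replicate number as a block, and each library left out. Genes with near-identical copies (H2-Q, protocadherin, histone and ribosomal protein genes and pseudogenes) are uncertain, because estimated reads can be divided among copies.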

Additional observations from a re-analysis of the deposited data

Results flagged for a closer look

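For 10 genes the change from WT to KO differed between the female and the male pair by the limma interaction term, chosen as the 5 highest and 5 lowest among genes past the threshold for both the female comparison and the interaction. The interaction is the female minus the male log2 fold change. Sox2, a transcription factor of neural and stem cells, went from 2.20 to 6.31 TPM in the female pair and from 14.1 to 1.14 TPM in the male pair (4.08 ± 0.34 SE, adjusted p = 1.1e-05). Hand2, a factor of the limb and heart, went from 3.29 to 10.1 TPM in the female pair and from 17.5 to 3.79 TPM in the male pair (3.33 ± 0.15 SE, adjusted p = 1.35e-07). The water channel Aqp1 went from 18.01 to 41.3 TPM in the female pair and from 55.5 to 12.2 TPM in the male pair (3.25 ± 0.087 SE, adjusted p = 2.11e-09), and Gas7 from 5.69 to 25.0 TPM in the female pair and from 10.6 to 3.78 TPM in the male pair (3.25 ± 0.21 SE, adjusted p = 1.86e-06). Each of these 4 genes rose in the female pair and had a lower mean in KO in the male pair. Mab21l2, a gene of eye and body wall development, fell in both pairs but more in males, from 6.45 to 3.62 TPM in the female pair and from 15.9 to 0.225 TPM in the male pair (3.10 ± 0.17 SE, adjusted p = 5.95e-07).

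Opposite differences were found for genes lower in female KO. Wt1 went from 3.34 to 0.479 TPM in the female pair and from 1.45 to 4.83 TPM in the male pair (-2.80 ± 0.28 SE, adjusted p = 4.15e-05), and Cthrc1 from 44.8 to 19.8 TPM in the female pair and from 16.2 to 54.8 TPM in the male pair (-2.84 ± 0.11 SE, adjusted p = 3.6e-08). The protocadherin Pcdhga10 went from 5.33 to 0.637 TPM in the female pair and from 0.701 to 3.65 TPM in the male pair (-3.41 ± 0.24 SE, adjusted p = 3.89e-06), and the zinc finger gene Gm14419 from 5.67 to 1.46 TPM in the female pair and from 0.494 to 3.17 TPM in the male pair (-2.96 ± 0.39 SE, adjusted p = 0.000365). For the pseudogene Gm49051, listed at 0 in all female KO libraries, the interaction was -3.33 ± 0.80 SE, adjusted p = 0.0178, a fitted value that depends on the pseudocount. Pcdhga10, Gm14419 and Gm49051 have similar copies elsewhere in the genome. Each group may be a single line, so sex, genotype and line cannot be told apart in these differences.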

How the results depend on the processing

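No named gene that passed in either fit changed sign under the 16 alternatives, where from 354 to 410 of the 410 were tested. Most of this was fixed in advance. The filters, the single fit, the block and the fit without the trend leave each fold change as it is. Genes past the threshold had groups that did not overlap, so another pseudocount or a library left out could not turn their sign. Only the scaling, quantile and protein-coding settings could. The number of genes past the threshold did depend on the setting. It was 670 with the replicate number as a block, and from 774 to 835 with any 1 of the 6 libraries left out, against 1434. These fits have fewer residual degrees of freedom. The deviations of same-numbered female KO and WT libraries had r of 0.024, -0.022 and 0.0017 across genes. Not every library correlated best with its own number. These values show no pairing by number across genes, but cannot tell whether same-numbered cultures were handled together. A call lost under the block therefore need not be a weaker effect. Of the 410 named genes, from 135 to 152 lost the threshold with 1 library left out, 154 under the block, 111 with no filter on low values and 83 without the variance trend, and at most 29 under the others. The other alternatives gave from 1126 genes (no filter) to 1711 (all 12 libraries in a single fit). Of the 171 genes with an absolute log2 fold change of at least 1, 105 were counted when the filter was set to 5 TPM, since low genes are then not tested, and the muscle marker list then had no gene left. Median-of-ratios scaling raised the median of all genes from -0.023 to 0.0044 and the share higher from 49.1% to 59.3%, and changed the ribosome biogenesis, tRNA synthetase and heat shock calls given above. TPM gives no depth, so no limit from counting can be stated, and with 3 libraries per group small differences can be missed.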
